A study of Mus musculus with 4 samples.

Results

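Gzma, Gzmb, Gzmc, Gzmk, Prf1, Nkg7 and Ctsw encode proteins of killer lymphocytes, most of them parts of the cytotoxic granules, and are called granule genes here. They were chosen by symbol and are 7 of the 26033 features in the deposited matrices. CD45+ cells, the leukocytes, were enriched with beads and sorted from the salivary glands of mice aged 20 days, and profiled in 4 droplet 3′ libraries. The first group was C56BL/6 Csf2-/-, which lacks both functional copies of the gene for the cytokine GM-CSF, and the second was C56BL/6 Csf2+/-, which keeps 1. Each genotype had 1 female and 1 male library, and each library pooled 2 mice, so that n = 2 libraries per genotype. All mice carried at least 1 mutant Csf2 allele, and the labels name no other allele or treatment. The questions were which of these genes was carried by which lymphocyte of the gland, and whether the levels differed between the genotypes.

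Killer lymphocytes store granzymes, which are serine proteases, in secretory granules together with perforin, the product of Prf1, which opens the target cell's membrane to them. Granzyme B cleaves after aspartate and activates caspases, whereas granzymes A and K cleave after basic residues; Nkg7 is a membrane protein of the granule that takes part in its release, and Ctsw encodes cathepsin W, a cysteine protease of NK cells and cytotoxic T cells. NK cells, group 1 innate lymphoid cells (ILC1s) and innate-like T cells all live in the salivary gland. In mice the granzymes lie in clusters of related genes.

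Gzma and Gzmk were next to each other among the protein-coding genes of chromosome 13, and Gzmc and Gzmb were next to each other on chromosome 14, in the GRCm38 annotation. Of the 7 genes, 6 were found in the table of RefSeq promoters, which holds 250 bases before and 50 bases after a gene's start, and Ctsw was not among them. The promoters of the 4 granzymes are shown because neighbouring granzyme genes had their highest mean level in different cell classes. Gzmb and Gzmc were nevertheless both high in innate-like T cells, often in the same cells, as given below. They are RefSeq GRCm38.p6 sequences, all on the minus strand, at chr13:113100932-113101231 for Gzma, chr13:113180916-113181215 for Gzmk, chr14:56262285-56262584 for Gzmb and chr14:56234608-56234907 for Gzmc. Capitals mark matches, on either strand, to the RUNX letters TGTGGT, the T-box letters GGTGTGA, the cyclic AMP response element (CRE) letters TGACGT and the STAT letters TTCNNNGAA.
Gzma promoter: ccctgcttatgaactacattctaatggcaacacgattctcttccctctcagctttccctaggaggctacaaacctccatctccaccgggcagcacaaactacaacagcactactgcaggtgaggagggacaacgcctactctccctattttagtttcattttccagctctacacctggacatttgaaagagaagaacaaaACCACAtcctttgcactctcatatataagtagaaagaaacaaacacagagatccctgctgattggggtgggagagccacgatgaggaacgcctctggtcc
Gzmk promoter: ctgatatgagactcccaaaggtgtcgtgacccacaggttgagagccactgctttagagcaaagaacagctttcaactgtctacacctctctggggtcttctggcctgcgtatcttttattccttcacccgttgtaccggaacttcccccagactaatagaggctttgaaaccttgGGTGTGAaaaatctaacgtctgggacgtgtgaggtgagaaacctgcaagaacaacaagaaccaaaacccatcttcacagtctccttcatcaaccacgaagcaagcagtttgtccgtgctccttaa
Gzmb promoter: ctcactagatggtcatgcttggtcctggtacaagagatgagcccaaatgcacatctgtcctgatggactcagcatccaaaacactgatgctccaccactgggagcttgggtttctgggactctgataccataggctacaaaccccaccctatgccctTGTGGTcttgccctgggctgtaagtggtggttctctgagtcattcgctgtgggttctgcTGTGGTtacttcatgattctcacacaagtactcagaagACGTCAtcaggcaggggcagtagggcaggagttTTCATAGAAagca
Gzmc promoter: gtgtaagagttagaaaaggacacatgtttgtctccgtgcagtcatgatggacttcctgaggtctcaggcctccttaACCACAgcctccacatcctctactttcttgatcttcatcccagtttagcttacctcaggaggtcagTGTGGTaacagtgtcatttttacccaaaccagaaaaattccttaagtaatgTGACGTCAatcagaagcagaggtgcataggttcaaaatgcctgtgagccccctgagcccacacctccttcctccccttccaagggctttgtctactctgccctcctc
The Gzma promoter held 1 RUNX match, with its first base at position -50 from the start, and the Gzmk promoter held 1 T-box match at -75. The Gzmb promoter held RUNX matches at -93 and -34, a CRE match at 5 and a STAT match at 38. The Gzmc promoter held RUNX matches at -174 and -108, and CRE matches at -57 and -55 that overlap each other on opposite strands. Among 32851 promoters of the same length, 16.8% held the RUNX letters, 3.98% the T-box letters, 7.51% the CRE letters and 8.30% the STAT letters. A match is a description of letters and not of binding.

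After filters and removal of predicted doublets, 34805 of 39395 barcodes remained: 8991 and 8842 for the female and the male pool of Csf2-/-, and 8835 and 8137 for those of Csf2+/-, an order kept in all later pairs of values. The libraries held 111981802 to 122366588 UMIs, and 20 to 38 barcodes were shared by any pair of libraries. The median depth was 8757 and 8819 UMIs per cell in the Csf2-/- libraries, against 10508 and 10120 in the Csf2+/- libraries, so Csf2-/- cells were read less deeply. Cells fell into 50 clusters, of which 15 stayed unnamed and the rest were joined into 19 classes named from marker genes; no granzyme and none of the 7 genes was used in clustering or naming. NK-like cells were 2 clusters, 1 of them led by the immunoglobulin genes Igha and Jchain, and ILC1-like cells were 1 cluster with 9 raised markers, none of them among its 10 leading genes. Csf2 was lower in Csf2-/- ILC2-like cells (group 2 innate lymphoid cells), with 6.71 and 5.79 CPM (the gene's UMIs scaled to the total UMIs of the class) against 124 and 139 CPM in Csf2+/- cells (edgeR adjusted p = 2.23e-08), in the direction the labels give.

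Granule genes divided the lymphocytes by which granzyme they held. Among the named classes, Gzma was highest in NK-like cells, Gzmb in innate-like T cells, Gzmc in ILC1-like and innate-like T cells, and Gzmk in conventional T-like cells. Prf1 was highest in NK-like cells, while Nkg7 and Ctsw were high in all of these classes. Levels are given in CPM, from the UMIs of a class summed in each library, and the order of classes is a description with no test, because cells were clustered on their own genes. B-like cells, which should lack the granule genes, are given for comparison. Other classes that should lack them were higher for some genes: Nkg7 averaged 107 CPM in neutrophil-like and 46.4 CPM in macrophage-like cells, against 17.1 CPM in B-like cells.

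**Figure D1:**
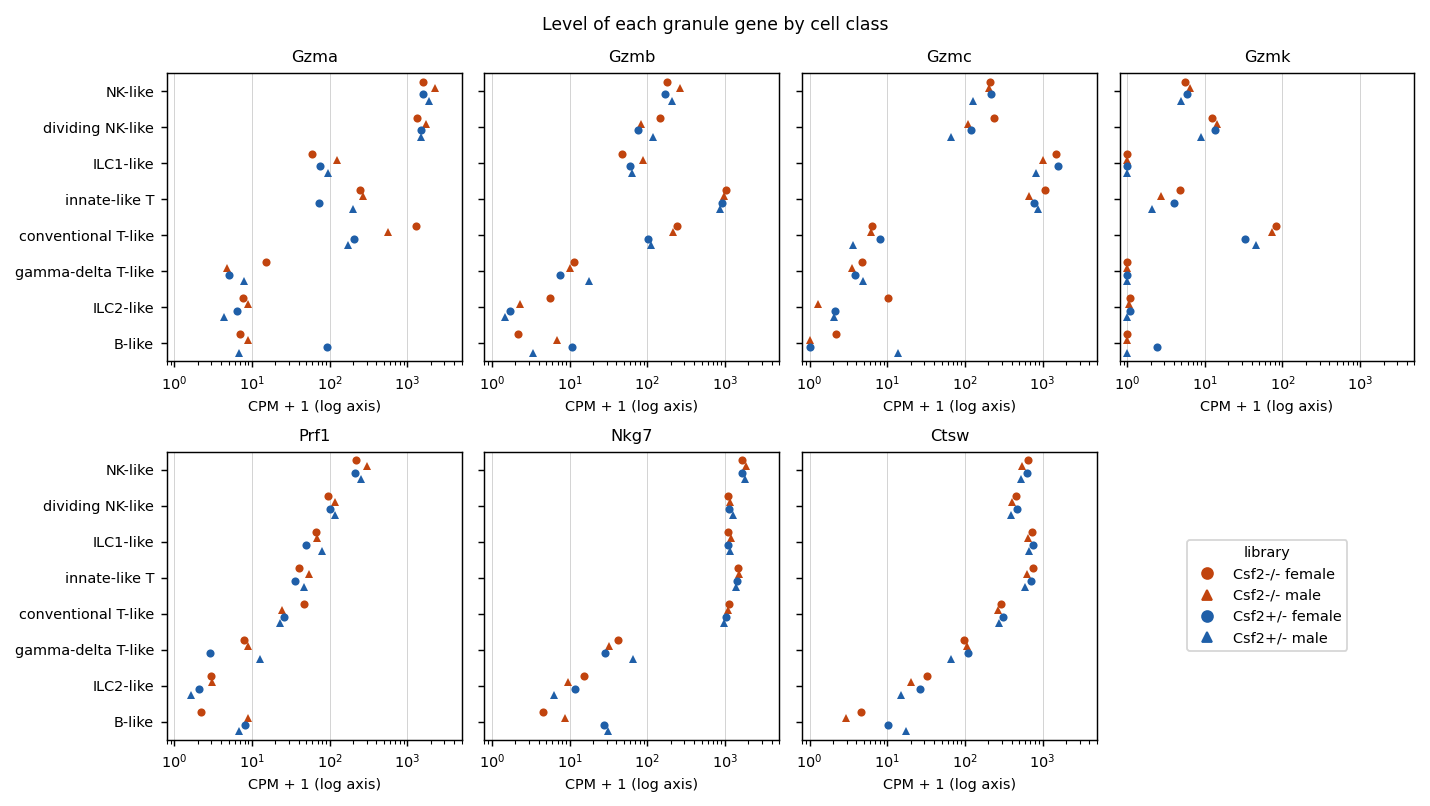
CPM + 1 on a log axis for each granule gene in 8 cell classes, 1 point per library (Csf2-/- in red, Csf2+/- in blue; circles female, triangles male). Gzma is highest in NK-like cells (1570 to 2289 CPM), Gzmb in innate-like T cells (857 to 1023 CPM) and Gzmc in ILC1-like and innate-like T cells (663 to 1596 CPM).

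Gzma had 1583 and 2289 CPM in the NK-like cells of the Csf2-/- libraries, against 1570 and 1880 CPM in those of the Csf2+/- libraries. Dividing NK-like cells came next, with 1321 and 1723 CPM in Csf2-/- against 1515 and 1488 CPM in Csf2+/- libraries, and their range overlapped that of NK-like cells. The mean over the 4 libraries was 1831 ± 338 CPM in NK-like and 1512 ± 165 CPM in dividing NK-like cells (SD, n = 4). Conventional T-like cells followed at 554 ± 512 CPM, innate-like T cells at 195 ± 87.2 CPM and ILC1-like cells at 87.8 ± 28.6 CPM (SD, n = 4), with conventional T-like cells below dividing NK-like cells in every library and overlapping innate-like T cells, and these overlapping ILC1-like cells. NK-like cells held 61.4% of the 186498 Gzma UMIs and dividing NK-like cells 23.3%. The B-like level was 5.91 and 7.75 CPM in the Csf2-/- libraries, against 90.4 and 5.84 CPM in the Csf2+/- libraries, and 1 B-like cell held 115 of the 129 Gzma UMIs of the Csf2+/- female library.

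Gzmb had 1023 and 968 CPM in Csf2-/- innate-like T cells, against 903 and 857 CPM in Csf2+/- innate-like T cells. Its mean of 937.7 ± 73.0 CPM (SD, n = 4) was 4.52 times that of the next class, the dividing T-like cells, and the libraries of the 2 classes did not overlap. NK-like cells had 205 ± 43.5 CPM and conventional T-like cells 166 ± 71.4 CPM, which overlapped, and ILC1-like cells had 63.6 ± 16.5 CPM (SD, n = 4). Innate-like T cells held 37.0% of the 37008 Gzmb UMIs and the more numerous NK-like cells 34.3%. The B-like level was 4.79 ± 3.89 CPM (SD, n = 4).

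Gzmc had 1511 and 1028 CPM in Csf2-/- ILC1-like cells, against 1596 and 815 CPM in Csf2+/- ILC1-like cells, so that in each genotype the female library was the higher one. Innate-like T cells had 1062 and 663 CPM in Csf2-/- against 784 and 862 CPM in Csf2+/- libraries. The means, 1238 ± 377 CPM in ILC1-like and 843 ± 168 CPM in innate-like T cells (SD, n = 4), overlapped between libraries. With cells thinned to 2000 UMIs the order of these classes turned, with 815.9 CPM in ILC1-like and 834.9 CPM in innate-like T cells. NK-like cells had 190 ± 43.1 CPM and conventional T-like cells 5.02 ± 1.80 CPM, next to a B-like level of 3.51 ± 6.25 CPM (SD, n = 4).

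Gzmk had its highest level in conventional T-like cells, at 81.5 and 72.3 CPM in the Csf2-/- libraries and 31.8 and 44.5 CPM in the Csf2+/- libraries. Dividing T-like cells, with 37.9 ± 19.6 CPM, overlapped them, and dividing NK-like cells had 11.3 ± 2.35 CPM and NK-like cells 4.73 ± 0.64 CPM (SD, n = 4). The more numerous NK-like cells still held many of the Gzmk UMIs. In Csf2-/- libraries conventional T-like cells held 170 and 97, NK-like cells 68 and 52, and dividing NK-like cells 58 and 79. In Csf2+/- libraries the same classes held 41 and 68, 115 and 68, and 98 and 77. In ILC1-like cells no Gzmk UMI was seen in any library, from 514 to 762 cells per library. Taken as 3 over the number of cells, the approximate upper limit on the share with a UMI was 0.394% to 0.584%. Gamma-delta T-like cells had no Gzmk UMI either, with a limit of 0.569% to 2.48%. Gzmk had 1346 UMIs in all, so its levels are less certain than those of the other genes; these limits and the intervals below cover counting error only.

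Prf1, the pore-forming partner of the granzymes, had 220 and 300 CPM in Csf2-/- NK-like cells, against 213 and 250 CPM in Csf2+/- NK-like cells. The NK-like mean of 245.6 ± 39.6 CPM was 2.30 times the 106.8 ± 10.97 CPM of dividing NK-like cells (SD, n = 4), without overlap. ILC1-like cells had 64.6 ± 12.4 CPM, innate-like T cells 43.4 ± 7.93 CPM and conventional T-like cells 28.8 ± 11.3 CPM (SD, n = 4). Innate-like T cells, the class with the most Gzmb, had less Prf1 than NK-like, dividing NK-like and, by the mean, ILC1-like cells.

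Nkg7, the granule membrane protein, averaged 1737 ± 106.4 CPM in NK-like, 1463 ± 63.4 CPM in innate-like T, 1159 ± 66.6 CPM in dividing NK-like, 1127 ± 49.8 CPM in ILC1-like and 1054 ± 63.7 CPM in conventional T-like cells (SD, n = 4). NK-like cells lay above innate-like T cells, and these above dividing NK-like cells, without overlap, whereas the classes below them overlapped. Dividing T-like cells, the last of this group, had 9.81 times the level of the next class, the neutrophil-like cells. Ctsw, the cathepsin W gene, averaged 704 ± 45.3 CPM in ILC1-like, 669 ± 68.4 CPM in innate-like T and 584 ± 57.05 CPM in NK-like cells (SD, n = 4). The libraries of these classes overlapped from one class to the next. Conventional T-like cells had 285 ± 17.7 CPM, and gamma-delta T-like cells, with 40.6 ± 16.4 CPM of Nkg7, still had 94.2 ± 20.3 CPM of Ctsw (SD, n = 4), above the B-like 7.74 ± 6.51 CPM but overlapping the 51.0 ± 35.5 CPM of neutrophil-like cells (SD, n = 4).

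The share of cells with a UMI gave another order for Gzmc. In Csf2-/- libraries 23.4% and 18.7% of ILC1-like cells held a Gzmc UMI, against 27.4% and 21.4% in Csf2+/- libraries, while innate-like T cells had 45.9% and 44.4% in Csf2-/- against 45.8% and 39.9% in Csf2+/- libraries. The shares in B-like cells were 0.599% and 0% in Csf2-/- against 0% and 1.37% in Csf2+/- libraries, at median depths of 4628 and 4614 against 5190 and 5040 UMIs. ILC1-like cells had median depths of 6653 and 6353 UMIs in Csf2-/- against 7698 and 7342 UMIs in Csf2+/- libraries. After thinning to 2000 UMIs the shares with Gzmc were 16.01% and 12.7% of Csf2-/- and 17.6% and 12.7% of Csf2+/- ILC1-like cells, against 27.04% to 29.5% of innate-like T cells in the 4 libraries. Thinned shares with Gzma were 54.8% and 67.0% of Csf2-/- and 51.7% and 59.9% of Csf2+/- NK-like cells, and 1.24% to 2.44% of B-like cells.

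Few cells carried most of the Gzmc. The 5% of ILC1-like cells with the most Gzmc UMIs held 85.1% to 91.8% of the Gzmc of the class, and 1 of them held 1222 UMIs. The same share was 83.9% to 93.6% in NK-like cells and 48.7% to 61.2% in innate-like T cells. Gzma was spread more evenly in NK-like cells, where the top 5% of cells held 25.9% to 29.7% of it, and Nkg7 more evenly still, at 11.28% to 12.004%. In ILC1-like cells the top 5% of cells for Gzma held 94.4% to 96.7% of it.

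The cells richest in Gzmc differed from the rest of their class in other genes, which is given as a description because these cells were chosen by Gzmc. In NK-like cells, the richest 5% had 527 to 945 CPM of Gzmb against 145 to 222 CPM in the other cells, and 611 to 1301 CPM of Gzma against 1619 to 2351 CPM, in the same direction in 4 of 4 libraries. Prf1 was at 241 to 356 CPM against 209 to 296 CPM, higher in 4 of 4 libraries. Xcl1, a chemokine that attracts cross-presenting dendritic cells, was at 3710 to 4682 CPM against 2248 to 2434 CPM. Itga1, the integrin chain of tissue-resident cells, was at 219 to 370 CPM against 122 to 184 CPM, and Eomes, the NK cell transcription factor, at 109 to 153 CPM against 248 to 273 CPM. In ILC1-like cells the richest cells likewise had more Ctsw (926 to 1191 CPM against 633 to 711 CPM) and Xcl1 (4704 to 7966 CPM against 2709 to 3201 CPM) in 4 of 4 libraries.

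**Figure D2:**
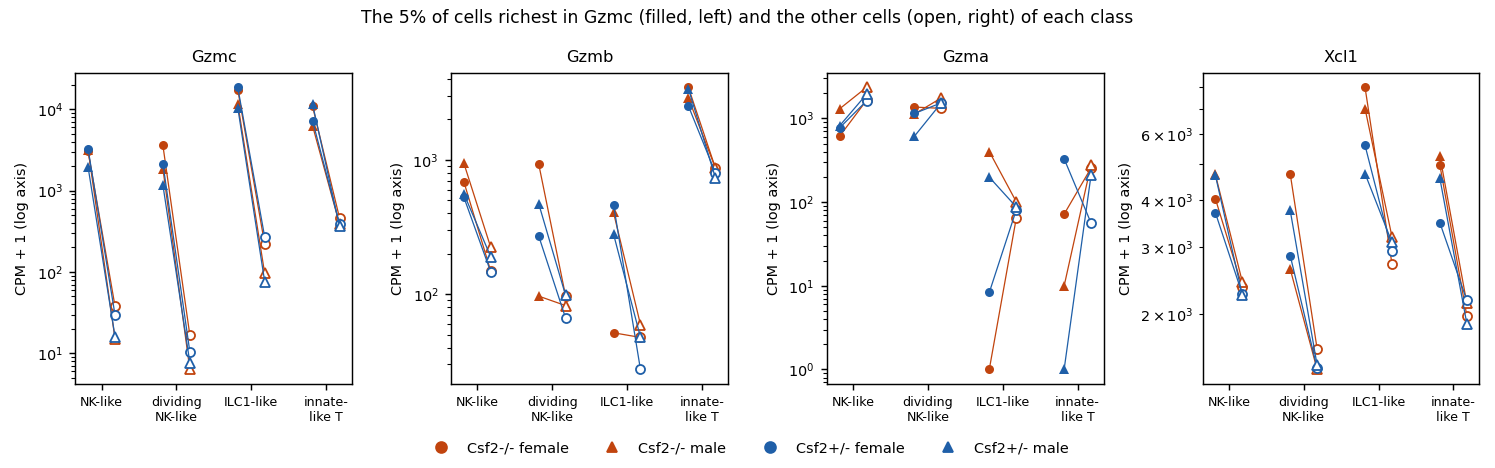
CPM + 1 on log axes of 4 genes in the 5% of cells with the most Gzmc (filled, left) and in the other cells (open, right) of 4 classes, with a line joining the values of 1 library (Csf2-/- red, Csf2+/- blue; circles female, triangles male). Gzmb and Xcl1 are higher in the Gzmc-rich cells of every library, and Gzma is lower in those of NK-like cells.

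The 2 NK-like clusters differed in Itga1, Gzma and Gzmc. The cluster with more Itga1, which is the one led by Igha and Jchain and has 1 NK marker among its 10 leading genes, had 268 and 271 CPM of Itga1 in Csf2-/- against 234 and 205 CPM in Csf2+/- libraries. It had 1182 and 1657 CPM of Gzma in Csf2-/- against 1086 and 1249 CPM in Csf2+/- libraries, and 305 and 440 CPM of Gzmc against 318 and 220 CPM. The cluster with less Itga1 (58.2 and 55.6 CPM in Csf2-/-, against 37.4 and 44.1 CPM in Csf2+/- libraries) had 2321 and 2725 CPM of Gzma in Csf2-/- against 2511 and 2549 CPM in Csf2+/- libraries, and 40.3 and 38.3 CPM of Gzmc against 25 and 26 CPM. The clusters did not overlap in any of these genes. Summed over the libraries, the cluster with more Itga1 had 240 CPM of that gene, near the 231 CPM of ILC1-like cells. Its Eomes level was 215 CPM, against 10.9 CPM in ILC1-like cells. Unlike in the Gzmc-rich cells, Prf1 was lower in the cluster with more Gzmc, at 192 and 244 CPM in Csf2-/- against 192 and 210 CPM in Csf2+/- libraries, than in the other, at 272 and 338 CPM in Csf2-/- against 253 and 292 CPM in Csf2+/- libraries, while Gzmb overlapped (155 to 247 CPM and 173 to 277 CPM). The Itga1-high cluster was 62.5% and 40.3% of the Csf2-/- and 63.1% and 49.4% of the Csf2+/- NK-like cells, more in the female library of each genotype.

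In single cells thinned to 2000 UMIs, some granzymes were found together more often than their separate shares give, and others less often. In NK-like cells Gzma and Gzmb were found together 1.28 to 1.41 times as often as independent detection gives, and Gzmb and Gzmc 1.64 to 2.24 times. Gzma and Gzmc were found together 0.648 to 0.769 times as often, and in dividing NK-like cells 0.621 to 0.749 times. In innate-like T cells Gzmb and Gzmc were found together 1.65 to 1.89 times as often as independent detection gives, in 20.4% to 23.6% of cells. Thinning to 4000 UMIs kept each of these ratios on its side of 1 at the median.

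Of cells thinned to 4000 UMIs, a median of 40.2% of NK-like cells held Gzma without Gzmb or Gzmc, and 17.7% held Gzma and Gzmb. None of the 3 was found in 27.7% of NK-like cells. Among innate-like T cells a median of 42.3% held none, 26.4% held Gzmb with Gzmc and 19.3% held Gzmb alone. ILC1-like cells most often held none (72.1%), and otherwise Gzmc alone (14.9%). Among B-like cells 95.2% held none.

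**Figure D3:**
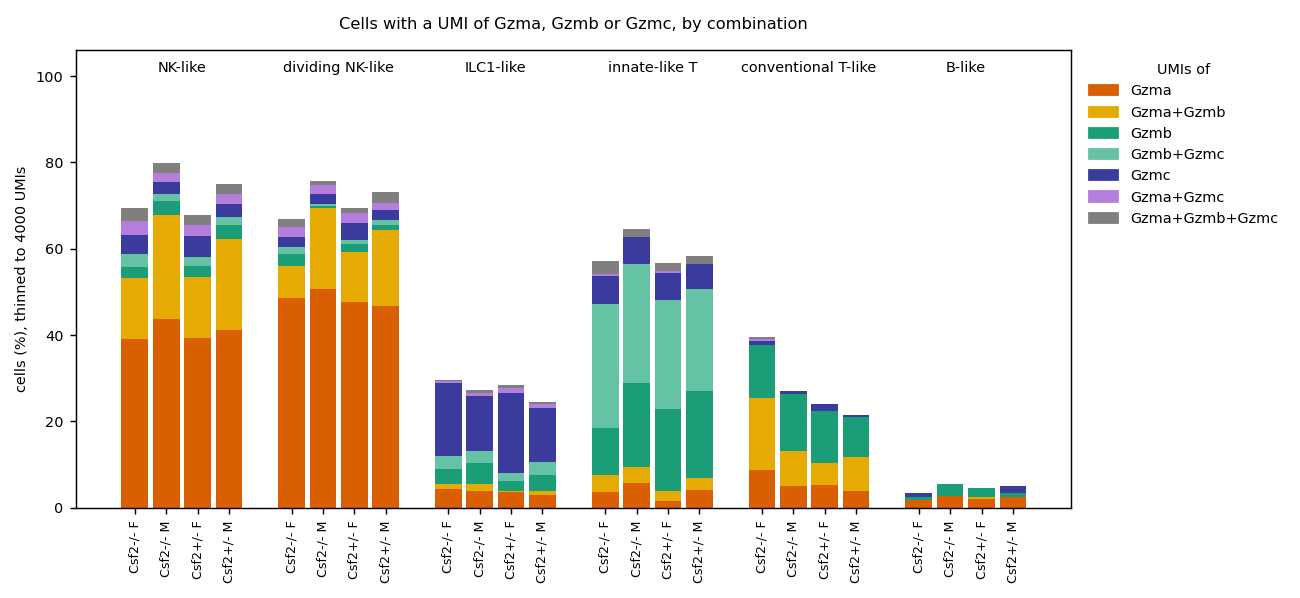
Share of cells in percent with UMIs of Gzma, Gzmb and Gzmc in each combination, after thinning to 4000 UMIs, 1 stacked bar per library (F female, M male); the rest up to 100% held none of the 3. NK-like bars are mostly Gzma with or without Gzmb, innate-like T bars Gzmb with or without Gzmc, and ILC1-like bars Gzmc alone.

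Innate-like T cells were split by receptor gene, after their values were seen. Those with a Trdc UMI and no Trac UMI had 1727 and 1424 CPM of Gzmb in Csf2-/- against 1117 and 1204 CPM in Csf2+/- libraries, and those with Trac and no Trdc had 828 and 854 CPM in Csf2-/- against 838 and 658 CPM in Csf2+/- libraries. The Trdc cells were higher in every library. Gzmc was 1779 and 898 CPM in Csf2-/- against 1125 and 1216 CPM in Csf2+/- Trdc cells. In Trac cells it was 1013 and 705 CPM in Csf2-/- against 685 and 760 CPM in Csf2+/- libraries, lower than in the Trdc cells of the same library each time. The separate class of gamma-delta T-like cells had 10.5 and 9.01 CPM of Gzmb in Csf2-/- against 6.53 and 16.7 CPM in Csf2+/- libraries, which overlaps the B-like level.

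The genes with the most similar pattern were sought among 12068 genes by Pearson's correlation of log2(CPM + 1) over the 19 classes, which share libraries and depth, so the values are descriptions. Gzma was closest to Sh2d1a (r = 0.931), Eomes, Samd3, Klra9 and Nkg7. Gzmb was closest to Baiap3 (r = 0.944), Fasl, Nkg7, Ms4a4b and Zfp683, and Gzmc to Klrb1a (r = 0.938), Klra5, Xcl1, Qrfp and Klrb1c. Prf1 was closest to Klrc3 (r = 0.944), Tigit, Sult2b1, Cd160 and Trdv2-2. Nkg7 and Ctsw were both closest to Fasl, the death ligand, with r = 0.976 and 0.973. For Gzmk no gene passed 0.846 (Cenpj), followed by Sh2d1a, Gm37198, Gzmm and Nsg2. Between the granzymes themselves, r was 0.818 for Gzma with Gzmb, 0.772 for Gzmb with Gzmc, 0.573 for Gzma with Gzmc and 0.248 for Gzmc with Gzmk.

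Between the genotypes, 1 of 45 tests of a granule gene in a lymphocyte class passed: Gzmb was higher in Csf2-/- conventional T-like cells. The tests used edgeR's quasi-likelihood model on UMIs summed per library and class, with p-values adjusted over all genes of a class by Benjamini-Hochberg at 0.05, and 4 of the 49 gene and class pairs had too few counts. At an unadjusted p under 0.05 there were 5, a count that was not set against the share over all genes and is not read as a result. DESeq2 called 2, Gzmb and Gzma, both in conventional T-like cells. With sex as a block edgeR called 2, Gzmb again and Gzmc in dividing NK-like cells (0.84, adjusted p = 0.00334). With no block that Gzmc change was 0.88 (edgeR adjusted p = 0.900). In that class 1 cell held 452 of the 1168 Gzmc UMIs of the Csf2-/- female library. Another held 374 of the 653 of the Csf2-/- male library. The richest cell held 300 of 944 in the Csf2+/- female and 105 of 645 in the Csf2+/- male library. The block also raised the calls over all genes in NK-like cells, as given in the last section. With 2 libraries against 2, an exact permutation test of a single value cannot go below p = 0.33. The log2 change of Csf2-/- over Csf2+/- cells was positive in 39 of the 45, a count over genes and classes of the same 4 libraries. The replicates are pools of mice, and the 2 pools of a genotype differ in sex. Without the block, these p-values therefore measure the spread between pools together with any difference between the sexes.

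**Figure D4:**
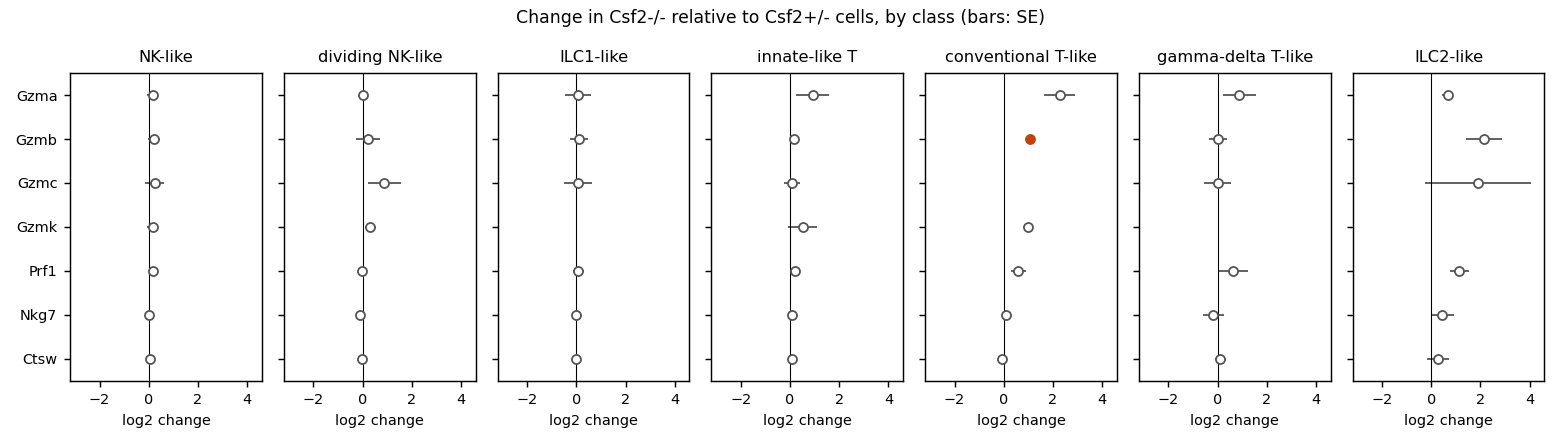
Log2 change of Csf2-/- relative to Csf2+/- cells (edgeR) with its SE for the 7 granule genes in 7 lymphocyte classes; open points did not pass the adjusted threshold and the filled red point did. Gzmb in conventional T-like cells (1.07) is the filled point, and genes with too few counts are left out.

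In conventional T-like cells Gzmb had 243 and 211 CPM in the Csf2-/- libraries, against 100.8 and 111 CPM in the Csf2+/- libraries. Both Csf2-/- libraries lay above both Csf2+/- libraries. These levels rest on 507 and 283 Gzmb UMIs in Csf2-/- against 130 and 169 in Csf2+/- libraries. The top 5% of cells held 48.5% to 62.3% of them. The log2 change was 1.07 (SE 0.14, edgeR adjusted p = 0.00802), 1 of 12 calls among 8478 genes (0.142%). Gzma had 1275 and 566 CPM in Csf2-/- against 205 and 172 CPM in Csf2+/- libraries, without overlap, but the Csf2-/- libraries differed from each other and the log2 change of 2.27 (SE 0.63) did not pass (edgeR adjusted p = 0.632). In edgeR it passed when either Csf2-/- library was left out, the female (1.52) or the male (2.75). Each of these fits leaves a lone Csf2-/- library and so does not see the difference between the Csf2-/- libraries. With all 4 libraries the Gzma change passed in DESeq2 (adjusted p = 0.0286). The top 5% of cells held 57.9% to 96.2% of the Gzma UMIs of a library. Gzmk had 81.5 and 72.3 CPM against 31.8 and 44.5 CPM, also without overlap. Its log2 change of 0.98 (SE 0.20) did not pass (edgeR adjusted p = 0.0909). It was 1.21 without the Csf2+/- male library, which leaves a lone Csf2+/- library. Prf1 (0.59, SE 0.31), Nkg7 (0.09, SE 0.12) and Ctsw (-0.08, SE 0.13) did not pass either (edgeR adjusted p = 0.675, 0.890 and 0.918).

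The granzyme-bearing conventional T-like cells were mostly those with Cd8a or Cd8b1 UMIs and none of Cd4, a split made after the values were seen. They were 52.4% and 44.5% of the Csf2-/- and 56.6% and 49.4% of the Csf2+/- conventional T-like cells. In them Gzmb had 412 and 419 CPM in Csf2-/- libraries, against 157 and 101.4 CPM in Csf2+/- libraries (log2 1.65, SE 0.18, edgeR adjusted p = 8.25e-05), and Gzmk 141 and 122 CPM against 48.01 and 72.6 CPM (1.10, SE 0.21, adjusted p = 0.0141), where 0.375% of 7193 genes were called. Gzma had 2240 and 990 CPM against 339 and 207 CPM, which did not pass (2.53, SE 0.72, adjusted p = 0.651). Of these cells, 54.9% (95% exact binomial limits 45.7 and 63.9%) and 43.1% (30.8 to 55.96%) held Gzmb in Csf2-/- libraries, against 31.9% (21.2 to 44.2%) and 37.2% (26.5 to 48.9%) in Csf2+/- libraries, with 65 to 122 cells per library. B-like cells held Gzmb in 0.599% and 1.98% of Csf2-/- and 1.98% and 0.685% of Csf2+/- cells. The Cd8 cells had median depths of 8457 and 9010 UMIs in Csf2-/- against 11041 and 10351 UMIs in Csf2+/- libraries. Cells with Cd4 and neither Cd8 gene had 70.1 and 50.02 CPM of Gzmb in Csf2-/- against 22.7 and 109 CPM in Csf2+/- libraries, which overlapped.

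**Figure D5:**
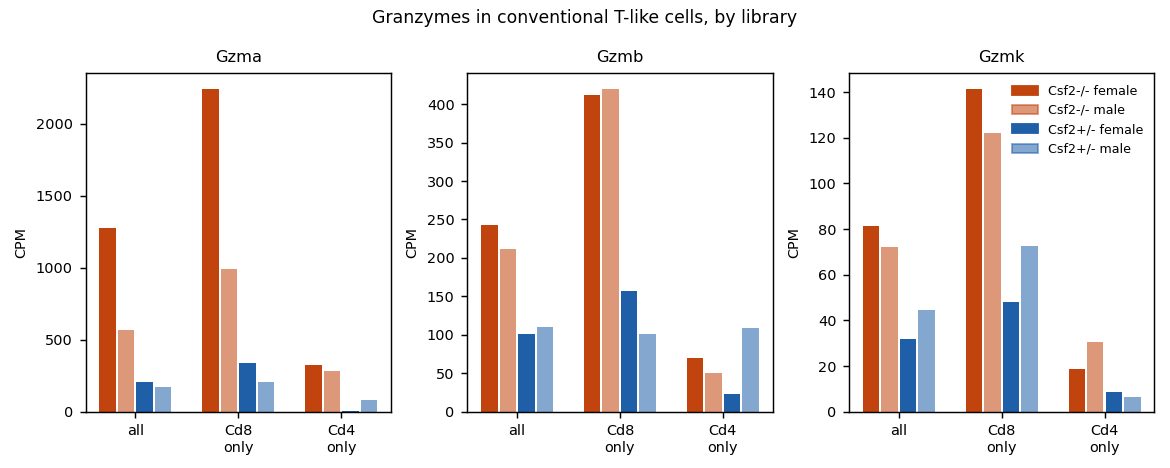
CPM of Gzma, Gzmb and Gzmk in all conventional T-like cells, in those with Cd8 UMIs only and in those with Cd4 UMIs only, 1 bar per library (Csf2-/- red, Csf2+/- blue; female dark, male light). The red bars stand above the blue ones for all 3 genes in the first and second groups, and the Csf2-/- female bar is the highest for Gzma.

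Some other marker sums moved with these values in conventional T-like cells, and others did not. The summed level of 17 NK-like markers was 533 and 453 CPM in Csf2-/- against 357 and 293 CPM in Csf2+/- libraries, against 4850 to 5371 CPM in NK-like cells, with at most 1 marker at 0 in any library. The 4 naive T cell genes summed to 706 and 631 CPM in Csf2-/- against 895 and 984 CPM in Csf2+/- libraries. Sums of other markers overlapped between the genotypes. In the same order they were 784 and 821 against 948 and 540 CPM for B-like markers, and 1206 and 1689 against 1297 and 805 CPM for macrophage-like markers. Markers of dividing cells had 411 and 423 against 484 and 388 CPM. The part of any of these sums in the result was not tested. With 122 to 233 conventional T-like cells per library, a different mix of naive and effector cells and a different level per effector cell cannot be told apart.

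The change of Gzmb was larger in conventional T-like than in innate-like T cells, by 0.88 on the log2 scale (SE 0.12, edgeR interaction, adjusted p = 0.00396), 1 of 2 calls among 9752 genes (0.0205%). In innate-like T cells Gzmb changed by 0.17 (SE 0.09, adjusted p = 0.807). The difference from NK-like cells was 0.89 (SE 0.30, adjusted p = 0.758, 0.0889% of genes called) and that from ILC1-like cells 1.02 (SE 0.51, adjusted p = 0.868, 0.116% called), and neither passed. These comparisons were added after the data were seen.

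In the other classes no granule gene was called. The members' log2 changes ran from 0.02 to 0.25 in NK-like cells (median 0.15; 0.0756% of all genes called), from -0.09 to 0.88 in dividing NK-like cells (median 0.01; 0.0458%) and from -0.03 to 0.10 in ILC1-like cells (median 0.07; 0.105%). In innate-like T cells they ran from 0.07 to 0.92 (median 0.17; 0.178%). There Gzma had 244 and 266 CPM in Csf2-/- against 71.1 and 201 CPM in Csf2+/- libraries, without overlap (0.92, SE 0.67, edgeR adjusted p = 0.937). The range was -0.17 to 0.89 in gamma-delta T-like cells (median 0.07; 0.0417%). In ILC2-like cells, where 0.0259% of genes were called, the range was 0.28 to 2.14. Gzmb was there at the level of B-like cells, with 4.64 and 1.32 CPM of Gzmb in Csf2-/- against 0.72 and 0.49 CPM in Csf2+/- libraries. Some changes passed when 1 library was left out, which leaves a lone library in its group. Without the Csf2-/- female library these were Gzma (0.39), Gzmb (0.47) and Prf1 (0.35) in NK-like cells, and without the Csf2+/- female library Gzmc in NK-like cells (0.73). Without the Csf2+/- male library they were Gzma in innate-like T cells (1.81) and, lower in Csf2-/- cells, Gzmc in ILC1-like cells (-0.35). Without the Csf2-/- male library they were Gzmb (2.87) and Gzmc (3.01) in ILC2-like cells, where in the Csf2-/- female library 1 cell held 34 of the 54 Gzmb UMIs and 1 cell held 93 of the 107 Gzmc UMIs. The median change of all genes was near 0 in each class, between -0.001 and 0.002 on the log2 scale. In NK-like against ILC1-like cells, the difference in change passed for none of 6 genes with usable counts (0 called by edgeR, 0 at an unadjusted p under 0.05; 0.0351% of all genes called; no other tool was run). Without the Csf2-/- female library Gzmc passed (0.44), and without the Csf2-/- male library Gzma passed (0.40).

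Within the NK-like cluster with less Itga1, tested on its own after the data were seen, Gzmc was higher in Csf2-/- cells, at 40.3 and 38.3 CPM against 25 and 26 CPM in Csf2+/- cells, without overlap (log2 0.60, SE 0.13, edgeR adjusted p = 0.00890; 0.747% of genes called). In the cluster with more Itga1 the change of 0.44 (SE 0.36) did not pass (adjusted p = 0.876).

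Summed over all CD45+ cells, where fewer cells of a type and less RNA per cell cannot be told apart, no granule gene was called by edgeR (0 of 7, with 0.0124% of all genes called; 2 at an unadjusted p under 0.05; 0 by DESeq2). Gzma had 445 and 398 CPM in Csf2-/- against 511 and 520 CPM in Csf2+/- libraries, and Prf1 53.7 and 48.9 CPM against 63.9 and 64.6 CPM, both without overlap, with log2 changes of -0.28 (SE 0.09, adjusted p = 0.428) and -0.31 (SE 0.09, adjusted p = 0.405). NK-like cells were 15.9% and 11.1% of the Csf2-/- and 22.1% and 18.6% of the Csf2+/- cells.

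Of the wider granule and killing machinery, few genes passed. In conventional T-like cells, where 0.142% of all genes were called, 1 of 9 tested death ligands and effector cytokines was higher in Csf2-/- cells, Ifng, the macrophage-activating interferon, with 162 and 148 CPM against 83.7 and 66.7 CPM (log2 1.02, SE 0.15, edgeR adjusted p = 0.0161), and 1 of 14 transcription factors was lower, Tox, with 243 and 279 CPM against 382 and 437 CPM (-0.69, SE 0.13, adjusted p = 0.0471). The median changes of these lists were 0.68 and -0.10. None of 10 genes of granule packaging, 11 of granule secretion or 5 serpins that protect the killer cell was called there, with medians of 0.10, 0.07 and 0.46. Nor was any of 13 cytokine receptors or 12 tested NK receptors and adaptors, with medians of 0.18 and 0.22.

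In innate-like T cells the cytokine receptor gene Il18r1 (64.6 and 75.2 CPM in Csf2-/- against 41.8 and 44.04 CPM in Csf2+/- libraries; log2 0.69, edgeR adjusted p = 0.0280) and the transcription factor gene Klf2 (136 and 131 CPM against 63.4 and 87.3 CPM; 0.83, adjusted p = 0.00439) were higher, 1 of 13 receptors and 1 of 15 factors, where 0.178% of all genes were called. Apart from Csf2 itself, ILC1-like cells had 1 call on these lists, lower Il21r (126 and 107 CPM in Csf2-/- against 157 and 168 CPM in Csf2+/- libraries; -0.48, adjusted p = 0.0348), 1 of 13 receptors, where 0.105% of all genes were called. Gamma-delta T-like cells had more of the chemokine gene Ccl5 (72.8 and 52.2 CPM against 16.8 and 16.7 CPM; 1.89, adjusted p = 0.00224), 1 of 10 death ligands and effector cytokines, where 0.0417% were called. In NK-like and dividing NK-like cells, where 0.0756% and 0.0458% of all genes were called, none of the genes on these lists was called by edgeR, among them 19 NK receptors and adaptors with median changes of 0.12 and 0.002. The other granzymes were scarce: Gzmm was at 18.7 and 5.96 CPM in Csf2-/- against 6.98 and 17.01 CPM in Csf2+/- conventional T-like cells, and Gzmm and Gzmf were the only ones of the 6 with enough counts to test in any of the 7 classes, with no call.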

How the data were processed

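Each deposited matrix gives UMI counts as whole numbers, a gene by barcode table that the authors left without normalization; the submitters' processing notes name Cell Ranger 7.0.0 and GRCm39. A barcode was kept if it had 500 or more UMIs, 300 or more genes and no more than 10% of its UMIs from mitochondrial genes (37644). Scrublet, run through scanpy 1.11.5, marked almost no barcodes by its own threshold, so for each library the barcodes with the top scores were dropped up to the number loading predicts (2839). Leiden clustering (leidenalg 0.10.2 with igraph 0.11.9, resolution 1.5) used 3000 variable genes, 40 principal components and 15 neighbours. Clusters were named from marker lists, so the names may not match those of the study. The T, NK and ILC classes with 50 or more cells in each library, 7 in all, were tested; B-like cells served for comparison only. The test was run on their summed counts, with edgeR 4.0.16 in R 4.3.3 (robust quasi-likelihood, TMM, default low-count filter, genotype as the only term, 2 residual degrees of freedom); DESeq2 1.42.0 was an alternative. An SE here is the size of the log2 change over the root of edgeR's F. No ILC3-like class was found, and dividing T-like cells were too few to test. The tests were tried on simulated data. All 7 genes are named in every class, up to 4 called genes of each list per class by p, and 5 genes per member for likeness. The genes, lists and splits were chosen with earlier results of these data known. The alternatives are another tool, no low-count filter, stricter cell filters, doublets kept, sex as a block, marker gates, other clusterings and leaving out each library. Coordinates are those of GRCm38.p6 promoters, since no GRCm39 annotation was used. In the last 500 bases of their transcripts the 7 genes shared no stretch of 60 bases with another gene. Upper limits for shares of 0 are approximate, 3 over the number of cells, and the other intervals for shares are exact binomial ones (scipy 1.17.1).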

Additional observations from a re-analysis of the deposited data

Results flagged for a closer look

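The genotype change of Gzmb was larger in conventional T-like than in innate-like T cells by 0.8766 on the log2 scale, by a test of the difference itself (edgeR interaction, adjusted p = 0.00396). It compares 243 and 211 CPM in Csf2-/- with 100.8 and 111 CPM in Csf2+/- conventional T-like cells, and 1023 and 968 CPM with 903 and 857 CPM in innate-like T cells.

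An unnamed cluster of 264 cells led by the interferon-response genes Ifit1 and Cxcl10, which enters no comparison, held high granzyme levels. Gzma had 2926 and 1694 CPM in Csf2-/- against 2229 and 1475 CPM in Csf2+/- libraries (mean 2081.173 CPM), and Gzmb 801 and 725 CPM in Csf2-/- against 403 and 675 CPM in Csf2+/- libraries (mean 651.146 CPM). Both lie above the B-like means of 27.5 CPM for Gzma and 4.79 CPM for Gzmb. The Gzma mean lies above that of NK-like cells (1831 CPM), but the libraries overlapped the NK-like range of 1570 to 2289 CPM. In the male library of each genotype the cluster had less Gzma than NK-like cells. Its Gzmb values lay between the ranges of NK-like (167 to 264 CPM) and innate-like T cells (857 to 1023 CPM). The cluster also carried the NK markers Eomes (206 CPM) and Klra8 (346 CPM), and 56.2 CPM of Cd3e.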

How the results depend on the processing

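The count of granule gene calls by class, 1 as reported, was 2 with DESeq2, with doublets kept and with sex as a replicate block. It was also 2 with Cd8-only cells in place of conventional T-like cells. With the Itga1-low cluster in place of NK-like cells it was 2 as well. There only Gzmc was called in that cluster, and the Gzmb call of conventional T-like cells was carried over unchanged. The count was 3 with no filter on low counts, and 0 in the gate on Cd3 genes. The cells of that gate were 7.57% conventional T-like and 20.8% NK-like. Without 1 library it was 2 to 5, where a lone library is assumed to vary like the others. Gzmb in conventional T-like cells passed in each of these run on T cells except the Cd3 gate (0.02 there). The count of granule genes whose genotype change differed between NK-like and ILC1-like cells, 0 as reported, was 0 to 1 without 1 library. Gzmc in ILC1-like cells reversed without the Csf2+/- male library, to -0.3525 (edgeR adjusted p = 0.00321), against 0.06 as reported, and ran from -0.35 to 0.66 without 1 library. Of 594 genotype values under the alternatives, 479 kept direction and call, 1 lost its call, 19 gained one, 1 reversed and 94 changed sign with no call. Called genes over all genes depended on the setting: in NK-like cells 9, against 415 with the replicate block, 224 with no filter and 6 to 238 without 1 library; in ILC2-like cells 3, against 52 and 290; in conventional T-like cells 12, against 13 and 95, with 21 to 105 without 1 library. Sex, not animal, links the libraries of a block. The class with the highest level held for 6 of 7 genes under thinning (not Gzmc). Among marker gates, the gate matching that class was highest for 6 of 7 genes (not Ctsw). Innate-like and conventional T-like cells share the Cd3 gate, so the gates cannot tell which T class had the most Gzmb or Gzmk. Gzmk rests on 1346 UMIs.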
